A study of Homo sapiens with 9 samples.

Results

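The 35 genes described here belong to the lysosome and the autophagy machinery that feeds it: 7 proteases, 6 glycosidases, 6 genes of lipid handling, 3 membrane proteins, 5 subunits of the vacuolar proton pump (V-ATPase), 6 autophagy genes and 2 transcription factors. They were given as a list of symbols by function, matched to the numeric NCBI Gene IDs of the count files; the rule uses no measured value, but the list was drawn up with earlier results of these data known. All 35 were found among the 28395 genes of each file, and all 35 were among the 16017 genes with enough reads to be tested. The cells were Caco-2, a human colon carcinoma line that takes on features of absorptive enterocytes once differentiated, labelled as wild type. The 3 groups held 3 samples each, lettered A, B and C, and were collected after 24 h in plain culture medium (the control), in medium with 10 µM carmine, or in medium with 20 µM carminic acid. Cochineal insects make carminic acid, a red pigment, and carmine, a food colour, is the insoluble complex it forms with aluminium. The series asks how such a colour is taken up by human cells, and these genes report on the organelle in which many endocytosed substances end up.

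Lysosomes are acidic compartments in which hydrolases break down proteins, sugars and lipids delivered by endocytosis or by autophagosomes. The V-ATPase pumps in the protons that the hydrolases need, and membrane proteins such as LAMP1 and LAMP2 line the compartment. TFEB and TFE3, transcription factors held in the cytoplasm by mTORC1 when nutrients are plentiful, move to the nucleus upon lysosomal stress and raise many of these genes through a palindromic promoter element.

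Matches to the letters of that element are shown first. Whether TFEB or TFE3 acts on these genes here was not tested. Promoter windows of RefSeq (GRCh38.p14, from 250 bases before to 50 bases after a start) were found for 27 of the 35 genes. The letters TCACGTGA, which read the same on both strands, were present in windows of 5 of those 27 genes (18.5%), compared with 9 of 92 other genes of the same pathways (9.78%) and 245 of 12370 tested genes (1.98%). The shorter core CACGTG, which lies inside every TCACGTGA, was present in 7 of the 27 (25.9%), in 23.9% of the other pathway genes and in 12% of the tested genes; the 2 genes with the core alone were CTSD and NEU1. The stretches of the 5 genes are given 5′ to 3′ on the strand of the gene, with CACGTG in capitals. GAA, LAMP1 and MCOLN1 each hold the longer motif 2 times, ATP6V0D1 and CTSA hold it 1 time each, and the other CACGTG of CTSA is followed by another letter. The LAMP1 window holds further CACGTG cores upstream of the stretch shown, none of them within the longer motif. A match is a description of the letters, not a measured binding site. The positions in the order printed are chr16:67481190-67481237 (minus strand), chr20:45891289-45891334, chr17:80101484-80101576, chr13:113297190-113297244 and chr19:7522562-7522623 (plus strand).
ATP6V0D1: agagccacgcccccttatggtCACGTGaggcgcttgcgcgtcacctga
CTSA: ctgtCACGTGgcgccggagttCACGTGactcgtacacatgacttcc
GAA: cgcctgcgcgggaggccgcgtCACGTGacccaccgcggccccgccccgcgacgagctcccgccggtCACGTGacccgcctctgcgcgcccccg
LAMP1: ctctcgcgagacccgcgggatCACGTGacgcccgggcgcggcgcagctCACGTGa
MCOLN1: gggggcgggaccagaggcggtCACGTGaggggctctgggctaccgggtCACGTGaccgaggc

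Library totals ran from 54871018 to 57581301 counts. Nothing in the labels states that A, B and C of a group came from separate cultures, and every p-value below therefore covers the spread among these libraries alone, which may be technical. Enterocyte markers were abundant (VIL1 at 1200 CPM in control, where CPM is the usual count scaled to library size), with 9 of 10 tested and a summed level of 4991 to 5249 CPM in control, 5050 to 5774 with carmine and 5064 to 5625 with carminic acid; KRT20 was listed at 0. Of the 8 immune markers 6 were tested, and the list summed to 23.6 to 27.9 CPM over all libraries. PTPRC had 8 counts in all and AIF1 had 0, so that sum came from other markers of the list. AIF1 lies in the same poorly counted stretch of chromosome 6 as NEU1, described with the levels. Of the 8 stromal markers 5 were tested, and the list summed to 116 to 166 CPM. Most of that was COL1A1, with COL1A2 at 4 and DCN at 5 counts in all. The share of counts on mitochondrial genes was 1.95% to 2.52% in control, 0.974% to 1.296% with carmine and 1.24% to 2.08% with carminic acid, and its part in the results was not tested. One library stood apart: carmine C had a first principal component score of 35.2, compared with -23.4 to 15.2 for the other 8. Carmine values of the members and their role groups that move by over 1.5 times without it are given both ways.

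The members spanned a wide range of levels. Per kilobase of the longest transcript, the highest level in control cells was that of PSAP, the precursor of the saposins that activate sphingolipid hydrolases, at 719 ± 16.3 CPM (SD, n = 3). The protective protein and carboxypeptidase CTSA followed at 617 ± 46.2 and the aspartic protease CTSD at 544 ± 32.2 CPM per kilobase. These 3 genes stood well above the next, the cholesterol carrier NPC2 (227 ± 9.18) and the cysteine protease CTSB (223 ± 6.89), which overlapped within their spread. At the low end of the length-scaled levels were the phosphoinositide-binding autophagy gene WIPI1 (8.12 ± 0.605), TFEB (6.99 ± 0.675) and the lysosomal calcium channel MCOLN1 (6.45 ± 0.395), with TFEB and MCOLN1 within their spread of each other. The sialidase gene NEU1 was near 0, at 0.323 ± 0.194 CPM per kilobase and 285 counts over all 9 libraries, while the next lowest total was 7249 counts for MCOLN1. NEU1 lies in a stretch of chromosome 6, between HLA-F and HLA-DPB1 (29723434 to 33089696 in RefSeq's GRCh38.p14), in which the 125 protein-coding genes had a median of 5 counts and 38.4% were at 0, against a median of 4493 and 9.66% among the other 19050. How the authors' counting treated reads that map to several places is not given in the sources used here, and its part in the NEU1 values was not tested. NEU1 is therefore left out of the plots that show differences gene by gene, but it is included in the medians.

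**Figure D1:**
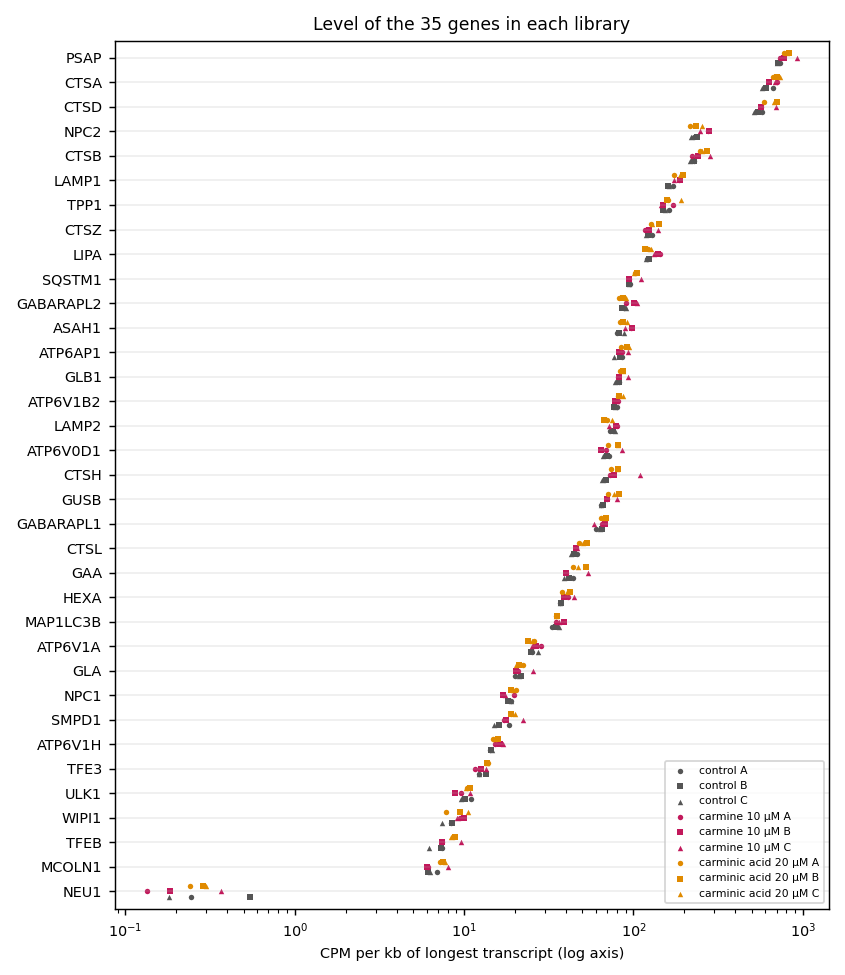
Level of each of the 35 genes in the 9 libraries, as CPM per kilobase of the longest transcript on a log axis; 1 point is 1 library, coloured by group and shaped by letter. PSAP, CTSA and CTSD lead, NEU1 stands near 0, and the groups lie close together compared with the distance between genes.

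None of the 35 genes passed the test in either comparison, but most fitted differences were above 0. With carmine, 30 of 35 members had a positive log2 fold change and their median was 0.092, beside 51.7% and 0.0066 for all tested genes. With carminic acid, 31 of 35 were positive and the median was 0.13, beside 48.1% and -0.0078 for all tested genes. The enterocyte markers were mostly positive as well: with carminic acid 8 of 9 tested were positive with a median of 0.12, and with carmine 7 of 9 were positive with a median of 0.0099; the part of enterocyte content in the members' values was not tested. Both comparisons use the same 3 control libraries, so a low or high value in a control library enters both. In bulk samples, a change in the share of cells of a type and a change in RNA per cell cannot be told apart.

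By edgeR's quasi-likelihood test with Benjamini-Hochberg adjustment over 16017 genes, 0 members were called with carmine (0% of all tested genes) and 0 with carminic acid (0% of all tested genes); DESeq2 and limma-voom also called 0 members. At an unadjusted p under 0.05, 8 members were higher with carmine, against a background of 5.38%, and 0 were lower, against 5.61%. With carminic acid 7 were higher, against 2.52%, and 0 were lower, against 3.91%. In 11 members every carmine library lay above every control library, compared with 7.32% of all tested genes, and in 0 members below, compared with 7.67%. For carminic acid 18 members were separated upward, compared with 12.0%, and 0 downward, compared with 8.82%. Without the library carmine C, 26 of 35 members were positive with carmine and their median was 0.071. The counts at an unadjusted p under 0.05 moved with single libraries: with carmine, from 3 without control B and 5 without control A or C to 13 without carmine A. With carminic acid they ran from 1 without control C or carminic acid B and 3 without control B or carminic acid C to 16 without carmine C, a library outside that comparison; leaving it out changes the shared estimate of the spread, the scaling and the genes tested, and the member median was then 0.12.

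**Figure D2:**
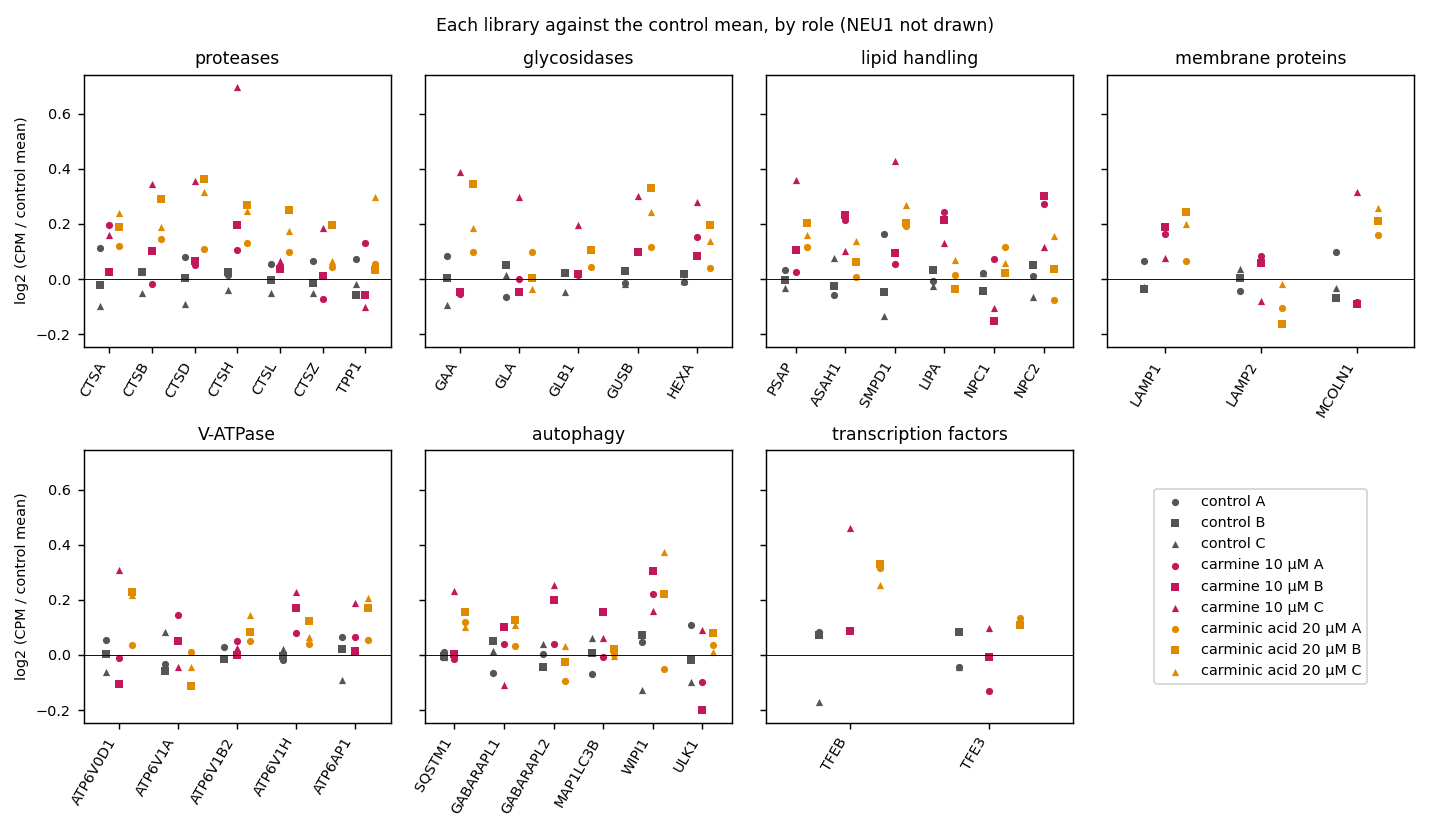
log2 of each library's CPM over the control mean for 34 genes in 7 role groups; colours mark the groups and shapes the letters. The carmine C points (triangles) lie far above carmine A and B for CTSH, GAA, TFEB and ATP6V0D1 and below them for NPC2, LIPA and ASAH1.

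Among the proteases, 6 of 7 were positive with carmine (median 0.13, or 0.048 without carmine C) and 7 of 7 with carminic acid (median 0.19). CTSH, a cathepsin with aminopeptidase activity (Gene ID 1512), stood at 149, 150.2 and 143 CPM in control A, B and C, at 159, 169 and 239 CPM with carmine and at 161, 178 and 175 CPM with carminic acid. All 6 treated libraries were above the 3 controls, and carmine C was far above the rest. Its log2 fold change with carmine was 0.36 (SE 0.12, adjusted p = 0.384 by edgeR's quasi-likelihood test), and 0.16 without carmine C; with carminic acid it was 0.22 (SE 0.12, adjusted p = 0.717). CTSD, the main aspartic protease of lysosomes (Gene ID 1509), stood at 1222, 1158 and 1086 CPM in control, at 1198, 1208 and 1478 CPM with carmine and at 1245, 1487 and 1437 CPM with carminic acid. The carminic acid libraries were all above the controls, whereas carmine A and B lay within the control range. The log2 fold change of CTSD was 0.27 with carminic acid (95% interval 0.065 to 0.47, adjusted p = 0.717) and 0.16 with carmine (-0.037 to 0.37, adjusted p = 0.513), or 0.064 with carmine once carmine C was left out.

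A separation from control with carminic acid alone was also seen in CTSA, CTSB and CTSL. CTSA stood at 1434, 1305 and 1239 CPM in control, 1518, 1351 and 1480 CPM with carmine and 1441, 1513 and 1567 CPM with carminic acid. CTSB stood at 881, 881 and 835 CPM in control, 855, 928 and 1100 CPM with carmine and 956, 1059 and 988 CPM with carminic acid. CTSL, a cysteine endopeptidase, stood at 100.5, 96.7 and 93.5 CPM in control, 99.7, 99.5 and 101 CPM with carmine and 104, 115 and 109 CPM with carminic acid. In all 3 genes the carminic acid libraries were above every control library, and the carmine libraries overlapped the controls. For CTSA, carminic acid A exceeded control A by little. Their log2 fold changes with carminic acid were 0.18 for CTSA, 0.21 for CTSB and 0.18 for CTSL, with unadjusted p from 0.0207 to 0.0301 and an adjusted p of 0.717 each. With carmine they were 0.13, 0.15 and 0.048, and that of CTSB was 0.048 without carmine C. With GC and length trends removed, as described below, they were 0.14, 0.19 and 0.16 with carminic acid. In that fit the carmine values were 0.12, 0.18 and 0.041, or 0.19, 0.098 and 0.075 without carmine C. CTSZ, a carboxypeptidase (0.045 with carmine, 0.10 with carminic acid), and TPP1, a tripeptidyl peptidase (-0.0058 and 0.13), overlapped the controls in both comparisons, and the carmine value of each turned its sign without carmine C (-0.026 and 0.044). The carminic acid value of TPP1 was 0.035 without carminic acid C, and that of CTSZ 0.055 without carminic acid B.

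The glycosidases remove sugars from glycoproteins, glycolipids and glycogen, and 5 of 6 were positive in each comparison, with medians of 0.10 for carmine and 0.11 for carminic acid. Without carmine C, 3 of 6 were positive with carmine and the median was 0.0014. GUSB, the beta-glucuronidase (Gene ID 2990), stood at 148, 152 and 147 CPM in control, at 159.9, 159.6 and 184 CPM with carmine and at 162, 188 and 177 CPM with carminic acid. All 6 treated libraries lay above the controls. The log2 fold change was 0.17 with carmine (SE 0.077, adjusted p = 0.450), or 0.10 without carmine C, and 0.23 with carminic acid (SE 0.077, adjusted p = 0.717). HEXA, the alpha subunit of beta-hexosaminidase (Gene ID 3073), stood at 192, 196 and 193 CPM in control, at 215, 205 and 235 CPM with carmine and at 199, 222 and 213 CPM with carminic acid, again without overlap with control. Its log2 fold change was 0.17 with carmine (SE 0.071, adjusted p = 0.417) and 0.13 with carminic acid (SE 0.071, adjusted p = 0.717). GAA, the glycogen-degrading alpha-glucosidase, had 0.11 with carmine and 0.21 with carminic acid, where its 3 libraries lay above the controls; without carmine C its carmine value was -0.046. GLB1, the beta-galactosidase, had 0.080 and 0.087 and was separated from control with carminic acid, and GLA, the alpha-galactosidase, 0.091 and 0.023. Without carmine C, the carmine values were 0.022 for GLB1 and -0.019 for GLA. For NEU1 the values were -0.51 and -0.23 with SEs of 0.43 and 0.42, and the carmine value was -1.02 without carmine C and 0.094 without control B, so its direction was not resolved at this depth.

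Of the lipid handling genes, 5 of 6 were positive with carmine (median 0.19) and 6 of 6 with carminic acid (median 0.067), and 2 of them, LIPA and NPC2, had the smallest p of all members with carmine. LIPA, the acid lipase that frees cholesterol and fatty acids from internalized lipoproteins (Gene ID 3988), stood at 333, 343 and 329.6 CPM in control, at 397, 389 and 367 CPM with carmine and at 338, 327 and 352 CPM with carminic acid. All carmine libraries were above all controls, while the carminic acid libraries overlapped them. The log2 fold change was 0.20 with carmine (95% interval 0.060 to 0.34, adjusted p = 0.375) and 0.016 with carminic acid (-0.12 to 0.15, adjusted p = 0.951). The LIPA locus overlaps the IFIT genes, of which IFIT1 had the most reads, 6.43% of those of LIPA. The NPC1 locus overlaps RMC1, with 10.1% of the reads of NPC1, and the CTSA locus overlaps PLTP, with 5.11% of those of CTSA. NPC2, which hands cholesterol to NPC1 inside the lysosome, stood at 329, 339 and 312 CPM in control, at 394, 402 and 354 CPM with carmine and at 310.0, 335 and 364 CPM with carminic acid. ASAH1, the acid ceramidase, stood at 243, 249 and 267 CPM in control, at 294, 298 and 272 CPM with carmine and at 255, 264 and 278 CPM with carminic acid. For both genes the carmine libraries lay above the controls and carmine C was the lowest of the 3, the reverse of the order in CTSH. In ASAH1, carmine C exceeded control C by little. The log2 fold changes with carmine were 0.23 for NPC2 (adjusted p = 0.380) and 0.18 for ASAH1 (adjusted p = 0.393); without carmine C they were 0.29 and 0.23, and that of LIPA 0.23.

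SMPD1, the acid sphingomyelinase (Gene ID 6609), stood at 45.4, 39.2 and 36.9 CPM in control, at 42.1, 43.2 and 54.6 CPM with carmine and at 46.3, 46.6 and 48.8 CPM with carminic acid. The carminic acid libraries lay just above the highest control. Its log2 fold change was 0.22 with carminic acid (SE 0.10, adjusted p = 0.717) and 0.20 with carmine (SE 0.10, adjusted p = 0.474), or 0.080 with carmine without carmine C. PSAP had 0.17 with carmine, 0.071 without carmine C, and 0.16 with carminic acid, with the carminic acid libraries above the controls. NPC1, the membrane-bound cholesterol transporter, had -0.058 (-0.031 without carmine C) and 0.065 and overlapped the controls in both comparisons. The carminic acid value of ASAH1, 0.069, was 0.027 without carminic acid C.

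**Figure D3:**
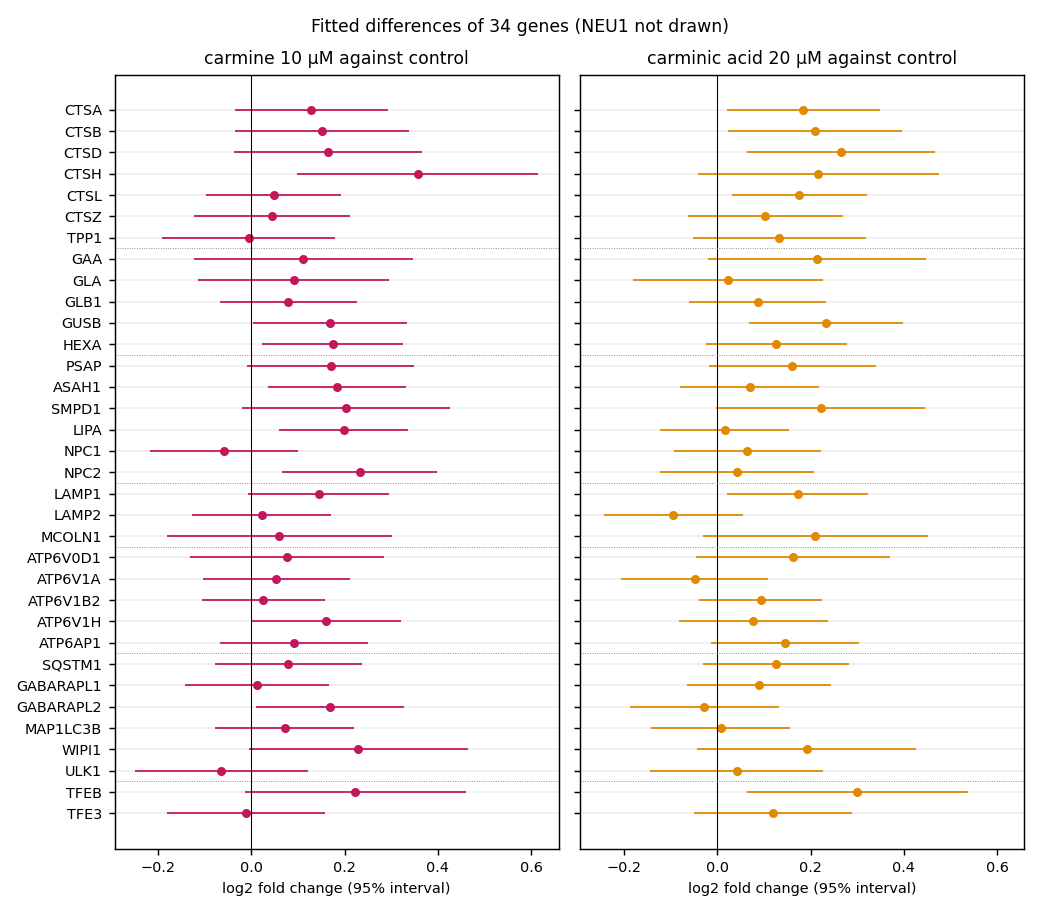
Fitted log2 fold change and 95% interval of 34 genes for carmine (left) and carminic acid (right) against control, with dotted lines between role groups. Intervals that clear 0 with carmine include those of LIPA, NPC2 and ASAH1, and with carminic acid those of CTSD, GUSB and TFEB; these intervals are not adjusted for the number of genes.

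Of the membrane proteins, 3 of 3 were positive with carmine (median 0.060) and 2 of 3 with carminic acid (median 0.17), and LAMP1 had the smallest p of them in both comparisons. This heavily glycosylated membrane protein (Gene ID 3916), whose promoter stretch with its 2 TCACGTGA motifs is given above, stood at 465, 433 and 435 CPM in control. It stood at 498, 506 and 469 CPM with carmine and at 466, 526 and 511 CPM with carminic acid. Every treated library was above every control library, although carminic acid A exceeded control A by little. The log2 fold change was 0.14 with carmine (SE 0.070, adjusted p = 0.457) and 0.17 with carminic acid (SE 0.070, adjusted p = 0.717). LAMP2, needed for autophagosome fusion and chaperone-mediated autophagy, had 0.022 with carmine (0.075 without carmine C) and -0.094 with carminic acid. MCOLN1 had 0.060 and 0.21, with carminic acid libraries above the controls; its carmine value was -0.082 without carmine C.

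The V-ATPase subunits had small positive values, 5 of 5 with carmine (median 0.076; 4 of 5 and 0.045 without carmine C) and 4 of 5 with carminic acid (median 0.094). ATP6V1H, a regulatory subunit of the cytosolic sector (Gene ID 51606), stood at 33.8, 34.2 and 34.8 CPM in control, at 36.2, 38.5 and 40.1 CPM with carmine and at 35.3, 37.3 and 35.8 CPM with carminic acid. The control values were tightly grouped and all treated libraries lay above them. Its log2 fold change was 0.16 with carmine (SE 0.075, adjusted p = 0.454) and 0.077 with carminic acid (SE 0.075, adjusted p = 0.781). ATP6AP1, an accessory subunit of pump assembly (Gene ID 537), stood at 242, 234 and 217 CPM in control, at 241, 233 and 264 CPM with carmine and at 239.6, 259.9 and 267 CPM with carminic acid. It overlapped the controls in both comparisons, with log2 fold changes of 0.092 (adjusted p = 0.641; 0.045 without carmine C) and 0.15 (adjusted p = 0.717). ATP6V0D1, of the membrane sector, had 0.076 and 0.16, and -0.051 with carmine once carmine C was left out. The catalytic subunit ATP6V1A had 0.053 (0.10 without carmine C) and -0.048, and ATP6V1B2 had 0.025 and 0.094, with its carminic acid libraries above the controls.

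Among the autophagy genes, 5 of 6 were positive in each comparison, with medians of 0.076 for carmine and 0.066 for carminic acid. GABARAPL2, one of the ubiquitin-like proteins joined to autophagosome membranes (Gene ID 11345), stood at 88.5, 85.7 and 90.7 CPM in control, at 90.9, 101 and 105 CPM with carmine and at 82.7, 86.8 and 90.4 CPM with carminic acid. The carmine libraries lay above the controls, carmine A by little, and the carminic acid libraries overlapped them. The log2 fold change was 0.17 with carmine (SE 0.074, adjusted p = 0.445) and -0.027 with carminic acid (SE 0.074, adjusted p = 0.922). WIPI1 (Gene ID 55062) stood at 15.4, 15.6 and 13.6 CPM in control, at 17.3, 18.4 and 16.6 CPM with carmine and at 14.4, 17.3 and 19.3 CPM with carminic acid. All 3 carmine libraries were above the controls and carminic acid A was not. The log2 fold changes of WIPI1 were 0.23 (SE 0.11, adjusted p = 0.454) and 0.19 (SE 0.11, adjusted p = 0.717), the latter 0.083 without carminic acid C. The cargo receptor SQSTM1 had 0.080 with carmine, 0.00071 without carmine C, and 0.13 with carminic acid, where it was separated from control. MAP1LC3B had 0.072 and 0.0072, GABARAPL1 0.012 and 0.089, and the initiating kinase ULK1 -0.064 and 0.042; without carmine C the carmine values were 0.074 for GABARAPL1 and -0.14 for ULK1. SQSTM1 shares part of its locus with MGAT4B (149812 and 149385 counts) and WIPI1 with PRKAR1A (8324 and 103934 counts), and the strand setting of the counting is not given in the sources used here. MAP1LC3B, GABARAPL1, GUSB and CTSL have close copies elsewhere in the genome, so their counts are less certain.

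TFEB (Gene ID 7942) stood at 19.2, 19.1 and 16.1 CPM in control, at 19.3, 19.3 and 24.96 CPM with carmine and at 22.6, 22.8 and 21.6 CPM with carminic acid. The carminic acid libraries were clear of the controls, whereas carmine A and B exceeded the highest control by almost nothing. Its log2 fold change was 0.30 with carminic acid (SE 0.11, adjusted p = 0.717), the largest among the members in that comparison, and 0.22 with carmine (SE 0.11, adjusted p = 0.459), or 0.094 without carmine C. TFE3 (Gene ID 7030) stood at 42.0, 45.9 and 42.0 CPM in control, at 39.5, 43.1 and 46.3 CPM with carmine and at 47.5, 46.7 and 46.8 CPM with carminic acid. Again the carminic acid libraries lay above the controls and the carmine libraries overlapped them. The log2 fold changes of TFE3 were -0.011 (SE 0.079, adjusted p = 0.970; -0.063 without carmine C) and 0.12 (SE 0.079, adjusted p = 0.720). Transcript levels do not report where these factors sit in the cell.

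The GC content of the transcripts moved with these values. The median GC content was 52.8% in the members and 49.3% in the 15453 tested genes with a transcript of known sequence. Across those genes, the Spearman correlation between GC content and a library's log2 level relative to the mean of all libraries ranged from -0.50 in control C, -0.44 in carmine A and -0.43 in carmine B to 0.50 in carmine C and 0.56 in carminic acid B. Across the 35 members it was -0.78 in carmine A, -0.70 in carmine B, 0.53 in carmine C and 0.72 in carminic acid B. The log2 fold change with carminic acid correlated with GC content at 0.60 over the members and 0.48 over all genes, and that with carmine at -0.12 and 0.14. These correlations are descriptions, since the points of a library share its preparation and depth.

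**Figure D4:**
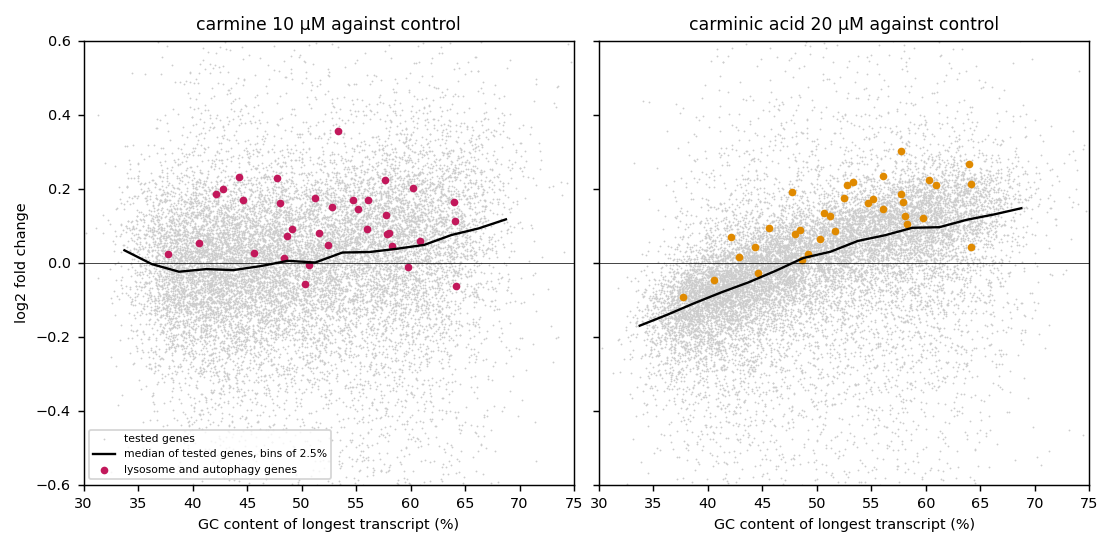
log2 fold change against transcript GC content for carmine (left) and carminic acid (right); grey points are tested genes, the black line their median in bins, and coloured points 34 of the lysosome and autophagy genes. Genes beyond the axis range are not drawn. With carminic acid both the line and the coloured points climb with GC content, and most coloured points lie above the line in both panels.

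The members were then described in 2 classes of GC content, split at 50% after the data had been seen and without a test. Of the 12 members under 50%, among them LIPA, NPC2, ASAH1 and GABARAPL2, 12 were positive with carmine (median 0.13) and 9 with carminic acid (median 0.033). Of all tested genes under 50%, 46.4% were positive with carmine and 28.1% with carminic acid. Of the 23 members at or over 50%, among them CTSD, TFEB and GAA, 18 were positive with carmine (median 0.092) and 22 with carminic acid (median 0.16), beside 58.3% and 70.8% of all genes of that class. In each of the 6 treated libraries, the median of the members lay above the median of all tested genes of the same class, in both classes. The same held in 2 of 3 control libraries under 50% and in 1 of 3 at or over 50%. All 6 treated values are relative to the same control mean, so they are not separate from each other. In carmine C the members under 50% had a median of 0.11 relative to the control mean, where all genes of that class had -0.12.

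**Figure D5:**
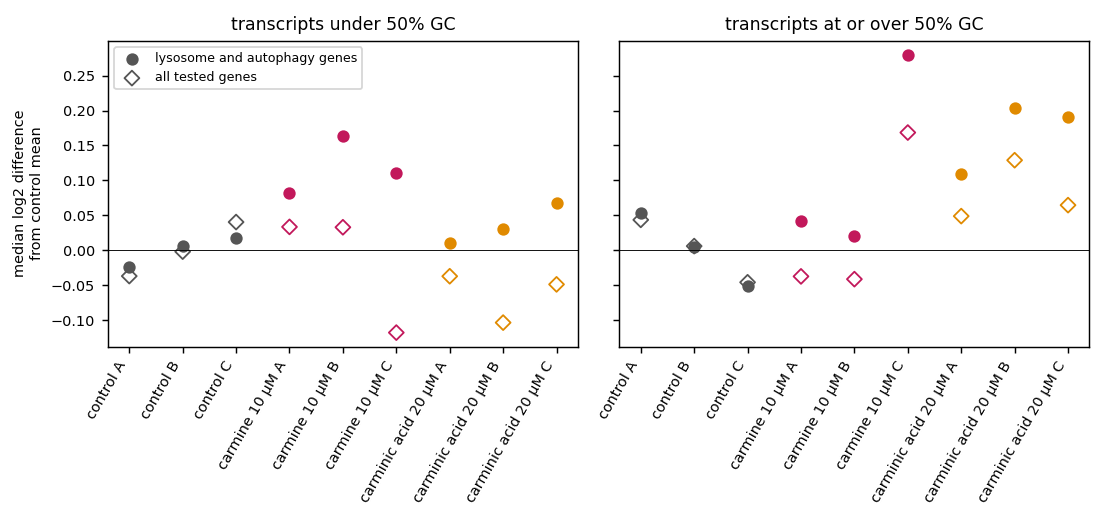
Median log2 difference from the control mean in each library, for transcripts under 50% GC (left) and at or over 50% GC (right); filled circles are the lysosome and autophagy genes, open diamonds all tested genes. The circle lies above the diamond in all 6 treated libraries in both panels, and in 2 of 3 control libraries on the left and 1 of 3 on the right. The control points lie near 0 because values are relative to the control mean. The medians of the lysosome and autophagy genes include NEU1.

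When smooth trends with GC content and transcript length were removed from each library before the same edgeR test, 3 members passed with carmine, and all 3 were higher: LIPA rose by 0.22 (log2; adjusted p = 0.0296), ASAH1 by 0.21 (adjusted p = 0.0388) and HEXA by 0.23 (adjusted p = 0.0388). In that fit 1.54% of all tested genes were called higher with carmine. With carminic acid 0 members passed, and 0.0129% of genes were called higher. The carminic acid values of the same 3 genes were positive in that fit: 0.096 for LIPA, 0.16 for ASAH1 and 0.11 for HEXA. The positive members were 31 of 35 with carmine and 33 of 35 with carminic acid, beside 58.6% and 58.8% of all tested genes, and the medians were 0.10 and 0.11, beside 0.033 and 0.023. Against 0 calls without the trend removal, the 3 calls depend on this setting. In the same edgeR fit without carmine C, the 3 genes were no longer called with carmine. LIPA then had 0.21 (adjusted p = 0.0525), ASAH1 0.20 (adjusted p = 0.0674) and HEXA 0.17 (adjusted p = 0.0965). The 2 members called there were NPC2 (0.26, adjusted p = 0.0376) and LAMP1 (0.24, adjusted p = 0.0399), with 0.638% of all tested genes called higher. No other library was left out with the trends removed. Whether the 3 calls were lost through carmine C itself or through having 1 library fewer was not tested. With carminic acid 0 members were called in the fit without carmine C, and 0.0383% of genes were called higher. In that fit 32 of 35 members were positive with carmine (median 0.092), beside 59.2% and 0.032 for all tested genes. CTSZ, GAA, MCOLN1 and ATP6V0D1 were negative without carmine C before the trend removal. Here they had 0.040, 0.060, 0.0018 and 0.015, while GLA stayed negative at -0.019.

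Other genes of the same pathways, 117 in 5 lists, were measured beside the members, and 115 were tested. None passed edgeR's test in either comparison. With carmine 74 of 115 were positive (median 0.036; 6 higher and 2 lower at an unadjusted p under 0.05), and with carminic acid 69 of 115 (median 0.042; 6 higher and 3 lower). The 16 other V-ATPase subunits had medians of 0.12 (0.078 without carmine C) and 0.074, and in this list ATP6AP2 had 0.16 with carmine and TCIRG1 0.25 with carminic acid. The 28 other hydrolases and activators had medians of 0.045 and 0.046, with AGA, which cleaves the bond between sugar chains and asparagine, at 0.22 with carmine and the phospholipase PLA2G15 at 0.26 with carminic acid. The 16 other membrane and sorting proteins had medians of 0.024 and 0.042, with the tetraspanin CD63 at 0.23 with carmine (395, 410 and 535 CPM in carmine A, B and C) and the mannose-6-phosphate receptor IGF2R at 0.19 with carminic acid. The 34 other autophagy genes lay closest to 0, with medians of 0.023 and 0.010; VMP1 had 0.13 with carmine and ATG9A 0.17 with carminic acid. Among 21 genes of mTORC1 and TFEB signalling the medians were 0.036 (-0.011 without carmine C) and 0.027, and MITF, a relative of TFEB, had the smallest p of its list in both comparisons.

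MITF stood at 3.76, 3.67 and 4.24 CPM in control, at 2.47, 3.26 and 2.97 CPM with carmine and at 3.47, 2.73 and 2.91 CPM with carminic acid. Every treated library was below every control library, unlike TFEB and TFE3. Its log2 fold change was -0.42 with carmine (SE 0.16, adjusted p = 0.391) and -0.36 with carminic acid (SE 0.16, adjusted p = 0.717).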

How the data were processed

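The authors deposited raw counts per gene, 1 file per library and 9 libraries in all. Per the submitters' processing notes, the tools were FastQC, HISAT and featureCounts and the build was hg38, with no version stated; library kit, strand setting and annotation release were not given in the sources used here. Totals of 54871018 to 57581301 counts made counting error small beside the spread between libraries (biological coefficient of variation 10.9%), except for NEU1. No 2 libraries of a group agreed within sampling noise (chi-square per degree of freedom at least 9.51).

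Counts of the 9 libraries were fitted together in edgeR 4.0.16 (R 4.3.3) with its filter on low counts by group, TMM scaling and the robust quasi-likelihood test, two-sided, with Benjamini-Hochberg adjustment over 16017 genes at 0.05. CPM values use the TMM-scaled library sizes. The script was tested on simulated data. Carmine and carminic acid were each compared with control; as their doses differ, they were not compared with each other. Every member is named, and values per library are given for whichever member of a role had the smallest p in a comparison, for both transcription factors and, added after values were seen, for the other members with an unadjusted p under 0.05; MITF was added in the same way. Of the related lists, the gene with the smallest p is named. The members and lists were chosen with earlier results of these data known.

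Alternatives were other scalings and filters, DESeq2 1.42.0, limma-voom (limma 3.58.1), non-robust estimation, a replicate block, only the 6 libraries compared, each library left out, and trends with GC content and length (splines of 5 degrees of freedom, longest protein-coding transcript) removed, the last also without carmine C, added after the data were seen.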

Additional observations from a re-analysis of the deposited data

How the results depend on the processing

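No member was called under any alternative except those that removed GC and length trends. With carmine, that removal called 3 members and 343 genes, and with the replicate block added 4 members (CTSH joined, adjusted p = 0.0341) and 661 genes (4.28%). Removing the trends without carmine C, a setting chosen after seeing the data, called 2 members (NPC2 and LAMP1) and 142 genes with carmine, and 0 members and 16 genes with carminic acid. The replicate block alone called 0 members and 0 genes in both comparisons; same-lettered libraries did not deviate together (correlations -0.14 to 0.089). Genes called with carmine numbered 7 with RLE factors, 7 with library size alone, 19 without a filter, 75 with DESeq2, 43 with limma-voom and 12 from 6 libraries, and 0 to 36 with a library left out (36 without carmine C). With carminic acid they numbered 2 without a filter, 8 with DESeq2, 34 with limma-voom, 49 from 6 libraries, 4 with trends removed, 2 with the replicate block added, and 0 to 21 with a library left out (21 without carmine C, where 16 members had an unadjusted p under 0.05 with carminic acid). The cause was not tested.

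Leaving out a library gave 26 to 32 positive members and medians of 0.071 to 0.15 with carmine, and 29 to 32 and 0.10 to 0.13 with carminic acid. Library size alone gave 27 and 28 positive members.

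Single genes turned sign as follows, and the cause was not tested. With carmine, library size alone gave LAMP2 -0.0076, ATP6V1B2 -0.0055 and GABARAPL1 -0.018; limma-voom gave TPP1 0.020, GLA -0.013, MCOLN1 -0.022 and ATP6V0D1 -0.028; trends removed gave TPP1 0.020, with and without the block. With carminic acid, library size alone gave GLA -0.0019, LIPA -0.0099 and MAP1LC3B -0.018, no filter gave MAP1LC3B -0.00065, and trends removed gave LAMP2 0.052, ATP6V1A 0.053, GABARAPL2 0.047 and ULK1 -0.052 (0.051, 0.053, 0.046 and -0.052 with the replicate block). Trends removed without carmine C gave TPP1 0.075, GLA -0.019, NPC1 0.011 and TFE3 0.031 with carmine, and LAMP2 0.053, ATP6V1A 0.0537, GABARAPL2 0.055 and ULK1 -0.051 with carminic acid. With a library left out, carmine values ran from -0.026 to 0.10 for CTSZ, -0.079 to 0.044 for TPP1, -0.046 to 0.19 for GAA, -0.019 to 0.15 for GLA, -1.02 to 0.094 for NEU1, -0.0089 to 0.075 for LAMP2, -0.082 to 0.13 for MCOLN1, -0.051 to 0.16 for ATP6V0D1, -0.036 to 0.074 for GABARAPL1 and -0.063 to 0.047 for TFE3. Carminic acid values ran from -0.023 to 0.045 for GLA, -0.52 to 0.37 for NEU1, -0.019 to 0.041 for LIPA, -0.025 to 0.092 for NPC2, -0.035 to 0.036 for MAP1LC3B and -0.0065 to 0.091 for ULK1.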
